A study of Mus musculus with 2 samples.

Results

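The 7 genes described here belong to the ephrin, semaphorin and guidance receptor families and were followed in endothelial cells (ECs) of mouse tumours. They are the ligands Efnb2, Efna1 and Sema3g and the receptors Ephb4, Plxnd1, Unc5b and Robo4. The 7 genes were chosen by name, not by a rule on their levels, from the 17139 genes that both expression tables list. Earlier results of these data were known when they were chosen. ECs came from Lewis lung carcinoma (LLC) tumours, a mouse lung cancer line grown under the skin of C57BL/6 mice (male C57BL/6J aged 8 to 9 weeks by the methods), after injection into the tumour of PBS, the vehicle, or cGAMP, the cyclic dinucleotide that activates STING. The methods give 14 µg of cGAMP in 70 µl. Sampling was at 24 h by the methods and by the legend of the main figure, whereas a supplementary legend gives 6 h. Live CD31+ cells without CD45 were sorted and sequenced by droplet single-cell RNA-seq, with 1 library from 1 mouse for each condition. The droplet kit is version 2 by the labels but version 3 by the methods.

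The comparison between conditions is therefore a comparison of 2 libraries with no replicate check. Intervals are 95% intervals that cover counting error only, and the limit given for a count of 0 is the value of 3 counts. The PBS library held 2517 cells and 92081146 UMIs (unique molecular identifiers, each 1 captured transcript), and the cGAMP library held 1340 cells and 63366746 UMIs. Their median depths were 29780 and 41178 UMIs per cell, and 1 cell barcode occurred in both. Pecam1 (CD31) was detected in 99.7% of PBS cells and 99.6% of cGAMP cells. The cells were sorted on CD31, and the authors removed contaminating Pecam1-negative cell types, so these shares are no check of the endothelial label. All 10 interferon response genes of a fixed list were higher in the cGAMP library, by a median log2 ratio of 1.47. Markers of other cells moved with the condition as well. The 12 listed of 15 leucocyte markers summed to 17.2 CPM (UMIs scaled to a library total of 1000000) in the PBS library and 49.5 CPM in the cGAMP library, where Cd3d was at 0. The 9 pericyte or fibroblast markers summed to 21.8 and 11.8 CPM, with Pdgfra at 0 in the cGAMP library, and the 3 listed of 4 epithelial markers to 2.09 and 0.395 CPM, with Epcam at 0 there. Mitochondrial UMIs made up a median of 4.49% of a PBS cell and 2.87% of a cGAMP cell.

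Ephrins are membrane-bound ligands of the Eph receptor tyrosine kinases and signal between touching cells, in both directions. Efnb2 is the classical mark of arterial endothelium and its receptor Ephb4 that of venous endothelium, and their contact helps to keep arteries and veins apart. Semaphorins signal through plexins, often with neuropilins, while netrins and Slits signal through Unc5 and Robo receptors. The same families steer axons and restrain or direct sprouting vessels.

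Promoter sequences are shown for the 4 genes that were at least 2-fold higher in an EC class than in the other ECs of both libraries. They are the 250 bases before the RefSeq transcript start in build GRCm38.p6, printed in the direction of transcription. Efnb2 lies at chr8:8661243-8661492 on the minus strand, Ephb4 at chr5:137349859-137350108 on the plus strand, Sema3g at chr14:31217623-31217872 on the plus strand and Unc5b at chr10:60831582-60831831 on the minus strand. Capitals mark GC boxes (GGGCGG, on either strand) and CCAAT boxes (CCAAT, on either strand).
Efnb2: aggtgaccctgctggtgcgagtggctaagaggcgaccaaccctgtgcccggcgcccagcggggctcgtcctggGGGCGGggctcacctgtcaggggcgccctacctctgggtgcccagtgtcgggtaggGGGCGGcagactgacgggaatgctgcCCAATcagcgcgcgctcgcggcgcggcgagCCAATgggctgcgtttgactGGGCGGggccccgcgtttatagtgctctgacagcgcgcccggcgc
Ephb4: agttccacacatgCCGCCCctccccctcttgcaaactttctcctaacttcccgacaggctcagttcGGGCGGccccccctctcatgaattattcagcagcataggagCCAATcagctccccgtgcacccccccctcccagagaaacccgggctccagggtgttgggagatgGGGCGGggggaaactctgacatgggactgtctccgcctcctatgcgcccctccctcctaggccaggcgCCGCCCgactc
Sema3g: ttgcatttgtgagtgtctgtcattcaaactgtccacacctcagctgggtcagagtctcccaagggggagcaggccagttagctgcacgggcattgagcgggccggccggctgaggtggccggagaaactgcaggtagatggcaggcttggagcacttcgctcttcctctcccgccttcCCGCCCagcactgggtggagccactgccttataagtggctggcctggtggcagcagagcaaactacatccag
Unc5b: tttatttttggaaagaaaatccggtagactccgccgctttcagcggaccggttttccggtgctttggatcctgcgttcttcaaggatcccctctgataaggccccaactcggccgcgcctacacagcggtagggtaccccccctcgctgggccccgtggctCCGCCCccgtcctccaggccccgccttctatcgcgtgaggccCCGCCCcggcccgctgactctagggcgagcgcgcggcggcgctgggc
All 4 windows were rich in G and C, at 72% for Efnb2, 64% for Ephb4, 60.4% for Sema3g and 66.8% for Unc5b. The Efnb2 window held 3 GC boxes and 2 CCAAT boxes, and Ephb4, its receptor, held 4 and 1. Sema3g held 1 GC box, Unc5b held 2, and neither held a CCAAT box. A GC box occurred in 32.7% and a CCAAT box in 33.8% of 32851 RefSeq promoter windows of the same length. The same 4 windows were searched on both strands for TGGGAA (the RBPJ core of Notch signalling, in 21.6% of all windows), ATTGT (a SOX core, 27.7%), ACGTG (a hypoxia factor core, 16.6%) and for an interferon response element pattern (TTTC, any 2 bases, TTTC, 2.98%), and held none of these letter strings. The GC and CCAAT boxes were added after that first search, and a match is a string of letters only.

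To place the genes in EC states, cells were grouped into 8 clusters without using any guidance gene. The clusters are named by fixed markers or else by their leading genes. They comprised an arterial cluster (Gja4, Nts, Gja5), a venous or stalk-like cluster (Selp, Ackr1), a tip-like cluster led by Gal and Chga, a tip-like cluster led by Ankrd1 and Pgf, a proliferative cluster led by histone genes, a proliferative cluster led by Cenpf and Ube2c, and 2 clusters without a name. One of these was led by Hba genes, Ramp3 and Esm1 and is called the Ramp3 Esm1 cluster here. The other was led by Igfbp5 and Ctsh, and 11 of 12 venous or stalk-like markers were raised in it. The arterial cluster made up 15.5% of PBS cells and 15% of cGAMP cells, whereas the venous or stalk-like cluster made up 16.1% and 27.4%. Tip-like cells made up 20.3% and 13.96%. Levels in a cluster against the rest are given as descriptions.

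Efnb2, Sema3g and Unc5b were highest in arterial ECs in both libraries, and Ephb4 was highest in the small Igfbp5 cluster. These 4 of 7 genes were at least 2-fold higher in an EC class than in all other ECs in both libraries, where 12.1% of all genes were. Ephb4 fell short of 2-fold, leaving 3 genes, at clustering resolution 0.3 and without integration, where no Igfbp5 class stood apart, and with thinned cells, where its log2 ratio over the other ECs of the cGAMP library was 0.71. For the arterial class alone the share of all genes was 1.42%. The study used Efnb2 and Sema3g among its own arterial marker genes for these cells, so their arterial level is not independent evidence. Efna1, Plxnd1 and Robo4 were spread more evenly.

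**Figure D1:**
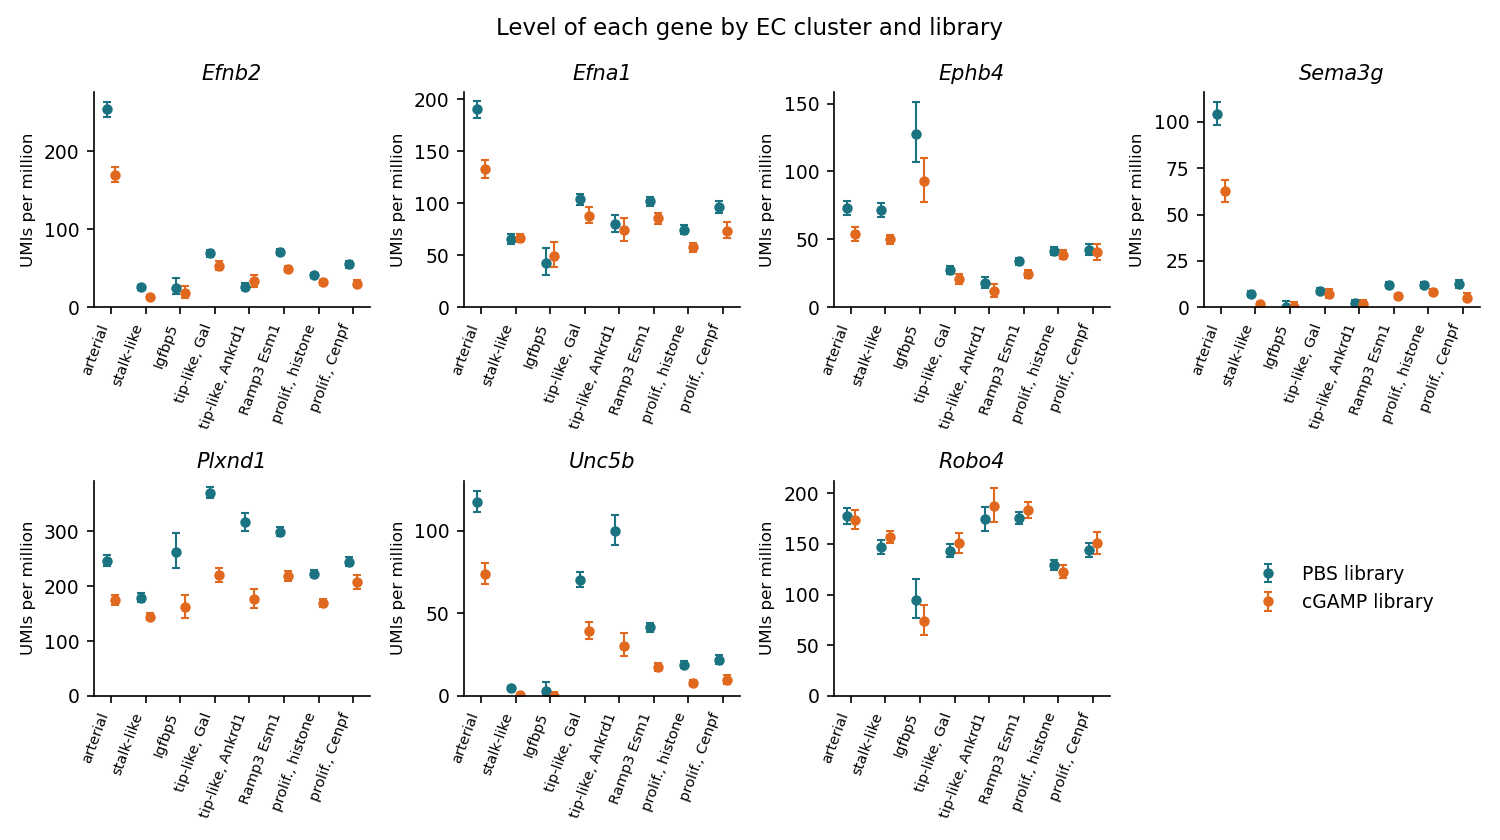
Level of each of the 7 genes in CPM (y axis, linear from 0) in each of 8 EC clusters (x axis), with PBS in teal and cGAMP in orange. Points are summed UMIs of 1 library and bars are 95% Poisson intervals (counting error only). Efnb2 and Sema3g stand out in the arterial cluster, Ephb4 in the Igfbp5 cluster, and Robo4 is similar across most clusters.

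Efnb2 encodes ephrin-B2, the transmembrane ligand of EphB receptors (chr8:8617434-8661242, minus strand, GRCm38). In arterial ECs its level was 253 CPM (244 to 263) in the PBS library and 169 CPM (160 to 179) in the cGAMP library. This was 4.85-fold and 5.32-fold the level of the other ECs. The arterial cluster held 39.2% and 40.7% of all Efnb2 UMIs. The next clusters in the PBS library were Ramp3 Esm1 at 71.2 CPM and the Gal tip-like cluster at 69.0 CPM, whose intervals overlapped. At clustering resolution 1.0, Efnb2 was also at least 2-fold higher in both libraries in an unnamed class led by Ramp3 and Mcf2l. The venous or stalk-like cluster was at 25.6 CPM in the PBS library, with an interval that overlapped those of the Igfbp5 (25.3 CPM) and Ankrd1 (26.7 CPM) clusters. In the cGAMP library it was at 13.9 CPM, and the Igfbp5 cluster, at 18.7 CPM, had an overlapping interval.

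Ephb4 encodes the receptor of ephrin-B2 (chr5:137350109-137378669, plus strand). It was highest in the Igfbp5 cluster, at 128 CPM (107 to 151) in the PBS library and 92.7 CPM (77.4 to 110) in the cGAMP library, on 131 and 129 UMIs. In the PBS library the arterial cluster, at 73.1 CPM, and the venous or stalk-like cluster, at 71.5 CPM, came next and did not differ beyond their intervals. With the Igfbp5 cluster apart, the venous marker was thus measured at about the same level in arterial as in Selp-positive venous or stalk-like ECs. In the cGAMP library these levels were 53.8 and 49.99 CPM, and again the intervals overlapped. Where no Igfbp5 class stood apart, Ephb4 was highest in the venous or stalk-like class. Its log2 ratios over the other ECs (PBS and cGAMP) were 0.94 and 0.70 at resolution 0.3. Without integration they were 0.99 and 0.68. Ephb4 was lowest in the Ankrd1 tip-like cluster, at 18.0 CPM in the PBS library and 11.8 CPM in the cGAMP library.

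Sema3g, a secreted class 3 semaphorin (chr14:31217860-31230352, plus strand), was the gene most concentrated in arterial ECs. Its arterial level was 104 CPM (98.2 to 110) in the PBS library and 62.6 CPM (56.9 to 68.6) in the cGAMP library, 10.3-fold and 12.7-fold the level of the other ECs. The arterial cluster held 57.7% and 62.1% of its UMIs. The highest level in any other cluster was 12.6 CPM. In the Igfbp5 cluster no UMI was counted in either library, where a count of 0 allows up to 2.92 CPM in the PBS library and 2.16 CPM in the cGAMP library.

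Unc5b, a receptor of netrin-1 that has been studied in tip and arterial ECs (chr10:60762593-60831581, minus strand), was high in arterial ECs and in both tip-like clusters. In the PBS library it reached 118 CPM (111 to 124) in arterial ECs, 100.05 CPM (91.2 to 109) in the Ankrd1 tip-like cluster and 70.3 CPM (66.0 to 74.8) in the Gal tip-like cluster. In the cGAMP library the same clusters stood at 73.6, 30.4 and 39.1 CPM. The order of the tip-like clusters thus differed between the libraries, and their intervals within the cGAMP library, up to 38.0 CPM for Ankrd1 and from 34.2 CPM for Gal, overlapped. Venous or stalk-like ECs had almost none, at 4.62 CPM on 55 UMIs in the PBS library and 0.524 CPM on 9 UMIs in the cGAMP library.

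Efna1 encodes ephrin-A1, a membrane-anchored ligand of EphA receptors (chr3:89271733-89281142, minus strand). It was also highest in arterial ECs, at 190 CPM in the PBS library and 133 CPM in the cGAMP library, but only 2.15-fold and 1.85-fold above the other ECs. Every cluster other than the Igfbp5 cluster held at least 57.7 CPM in both libraries. Plxnd1, the plexin that binds Sema3e and shapes vessel patterning (chr6:115954811-115995005, minus strand), was highest in the Gal tip-like cluster, at 370 CPM (360 to 380) in the PBS library. The Ankrd1 tip-like cluster followed at 316 CPM and the Ramp3 Esm1 cluster at 299 CPM, with overlapping intervals. The lowest Plxnd1 level of the PBS library was 179 CPM in venous or stalk-like ECs. In the cGAMP library the range narrowed to 144 to 220 CPM, and the Gal tip-like and Ramp3 Esm1 clusters, at 220 and 218 CPM, did not differ beyond their intervals.

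Robo4, the Roundabout receptor found mainly in endothelium (chr9:37401897-37415115, plus strand), varied little between most clusters. Without the Igfbp5 cluster its level ran from 129 to 177 CPM in the PBS library and from 123 to 188 CPM in the cGAMP library. In the Igfbp5 cluster it was 94.4 CPM on 97 UMIs and 74.0 CPM on 103 UMIs.

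Between the libraries, 6 of the 7 genes were lower in cGAMP-treated ECs, where 59.6% of all 9509 genes with at least 5 CPM in a library were lower. All 7 genes passed that level. Unc5b, Sema3g and Efnb2 were at least 1.5-fold lower, which held for 7.41% of all genes. With the EC classes held at equal proportions the Efnb2 ratio was -0.58, short of 1.5-fold. The middle of the 7 log2 ratios (cGAMP over PBS) was -0.57, against a median of -0.08 over all genes. Whether fewer cells of a state or less RNA per cell lies behind a summed level cannot be told from that level alone.

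**Figure D2:**
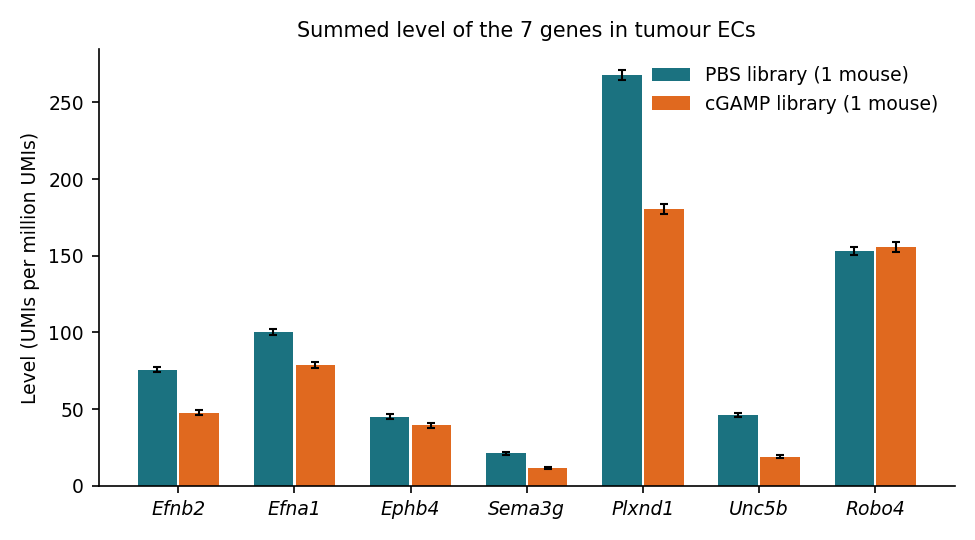
Summed level of each gene over all ECs of a library, in CPM (y axis, from 0), for the PBS (teal) and cGAMP (orange) libraries. Error bars are 95% Poisson intervals for counting error and each bar is 1 mouse. 6 genes are lower in the cGAMP library and Robo4 is level.

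Unc5b showed the largest difference, at 46.0 CPM (44.6 to 47.4) in the PBS library and 18.9 CPM (17.9 to 20.04) in the cGAMP library. The log2 ratio was -1.28 (-1.37 to -1.19), a level 2.43-fold lower. Of all 9509 genes, 60 (0.631%) were lower by at least this much. Sema3g was at 21.2 CPM in the PBS library and 11.5 CPM in the cGAMP library, a log2 ratio of -0.88 (-1.01 to -0.76). With every cell thinned to 5000 UMIs, the Sema3g ratio was -0.54, short of 1.5-fold.

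Efnb2 was at 75.8 CPM in the PBS library and 47.5 CPM in the cGAMP library, a log2 ratio of -0.67 (-0.74 to -0.61). Plxnd1, at 268 and 180 CPM, lay just inside the 1.5-fold limit, with a log2 ratio of -0.57 (-0.60 to -0.54) and a level 1.49-fold lower. Efna1 had a smaller ratio of -0.35 (-0.40 to -0.30), from 100.3 CPM in the PBS library to 78.7 CPM in the cGAMP library. Ephb4, the receptor of ephrin-B2, differed less between the libraries than its ligand, and the counting intervals of their ratios did not overlap. It was at 45.1 and 39.3 CPM, a log2 ratio of -0.20 (-0.27 to -0.12). Its ratio was -0.09 in cells with at most 5% mitochondrial UMIs and -0.34 with the EC classes held at equal proportions. Robo4 was at 153 CPM in the PBS library and 156 CPM in the cGAMP library, and the interval of its log2 ratio, -0.01 to 0.06, included 0.

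Within the clusters the direction mostly held. Plxnd1, Ephb4 and Unc5b were lower in the cGAMP library in all 8 clusters, as were 19.9% of all genes. For Unc5b the Igfbp5 cluster counts on 3 UMIs in the PBS library and none in the cGAMP library, too few for a ratio. Efnb2 was lower in 7 clusters and Efna1 in 6. Sema3g was lower in 7, and the remaining cluster was the one without a UMI. Robo4 was lower in 3 and higher in 5. The interval lay wholly below 0 in 8 clusters for Plxnd1, 7 for Unc5b, 6 for Efnb2, and 5 each for Efna1, Ephb4 and Sema3g.

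**Figure D3:**
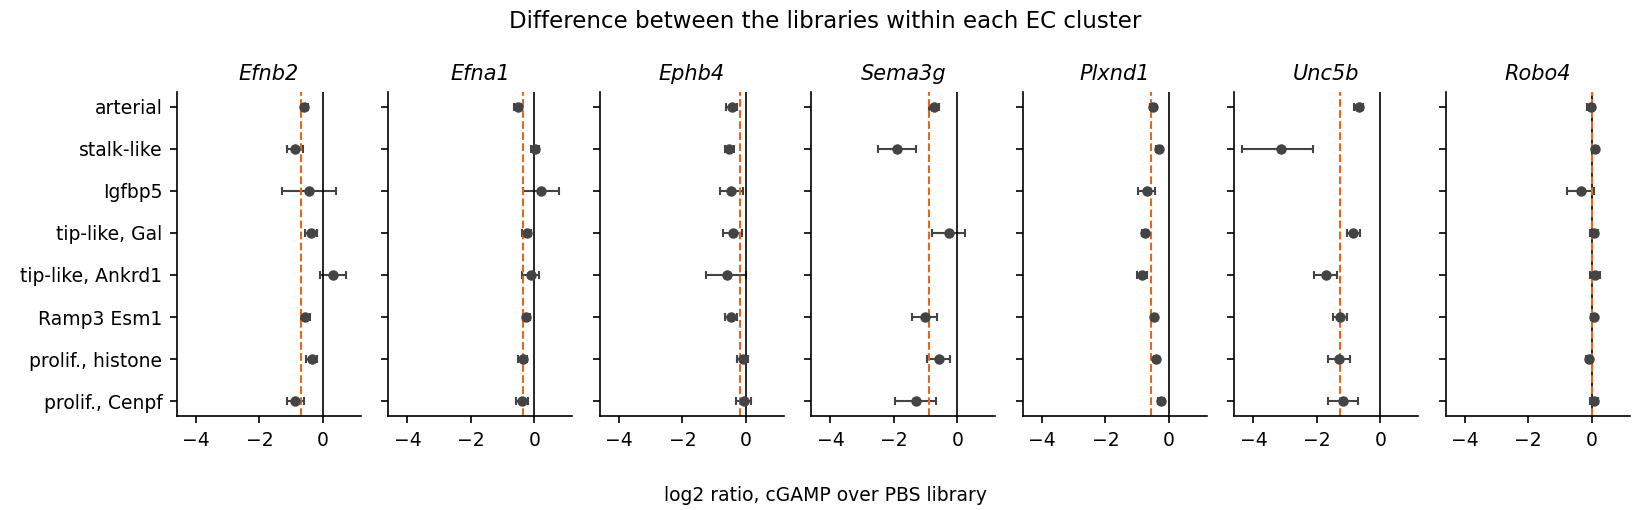
Log2 ratio of the cGAMP over the PBS library (x axis) within each EC cluster (y axis) for each gene, with 95% counting intervals. The solid line is 0, the dashed line is the ratio over all ECs, and clusters with fewer than 5 UMIs in a library are left out. Unc5b and Plxnd1 lie left of 0 in every cluster drawn, and Robo4 lies close to 0.

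The smallest log2 ratio of Unc5b in size was in arterial ECs, at -0.67 (-0.82 to -0.53). The Gal tip-like cluster had a ratio of -0.85 and the Ankrd1 tip-like cluster a ratio of -1.72 (-2.09 to -1.37). Leucocyte markers in the Ankrd1 cluster summed to 35.3 CPM in the PBS library and 318 CPM in the cGAMP library, and their part in that difference was not tested. In venous or stalk-like ECs, where Unc5b was low in both libraries, it was 8.83-fold lower in the cGAMP library, with a log2 ratio of -3.14 (-4.34 to -2.11). In the Igfbp5 cluster Unc5b had 3 UMIs in the PBS library and none in the cGAMP library, too few for a ratio. Unc5b was at least 1.5-fold lower in each of the other clusters. Among genes with at least 5 CPM in a library of the cluster, the share that far lower ran from 6.59% to 13.7% over these clusters. Unc5b itself was under 5 CPM in venous or stalk-like ECs of both libraries.

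Efnb2 had a log2 ratio of -0.58 (-0.68 to -0.48) in arterial ECs, and Efna1 and Sema3g had -0.52 and -0.74 there. The pericyte or fibroblast markers of the arterial cluster summed to 51.8 CPM in the PBS library and 14.4 CPM in the cGAMP library, and their part in these differences was not tested. The arterial share of cells, 15.5% (14.1 to 17.0) and 15% (13.1 to 17.0), did not differ beyond its intervals. Efnb2 was lower by more in venous or stalk-like ECs, at -0.88 (-1.13 to -0.63), and in the Cenpf proliferative cluster, at -0.87. The exception was the Ankrd1 tip-like cluster, with 26.7 CPM in the PBS library and 33.2 CPM in the cGAMP library and an interval of the log2 ratio, -0.10 to 0.73, that included 0.

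Plxnd1 differed most in the tip-like clusters, but the Igfbp5 cluster, at -0.70 (-0.96 to -0.44), did not differ from them beyond its interval. The log2 ratio of Plxnd1 was -0.84 (-0.99 to -0.68) in the Ankrd1 and -0.75 (-0.84 to -0.66) in the Gal tip-like cluster. The smallest in size were -0.31 (-0.39 to -0.22) in venous or stalk-like ECs and -0.24 (-0.35 to -0.14) in the Cenpf proliferative cluster. For Ephb4, the venous or stalk-like cluster had a ratio of -0.52 (-0.66 to -0.38) and the arterial cluster -0.44 (-0.62 to -0.26). Both proliferative clusters had Ephb4 intervals that included 0.

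Shares of cells with a UMI were compared after every cell was thinned to 5000 UMIs, which left out 70 PBS cells and 13 cGAMP cells below that depth. Unc5b was detected in 17.8% (16.3 to 19.4) of PBS cells and 8.44% (7 to 10.1) of cGAMP cells. Plxnd1 was detected in 64.5% and 52.8%, Efnb2 in 24.8% and 18.0%, and Efna1 in 37.0% and 30.7%. Sema3g was detected in 9.15% (8.04 to 10.4) and 6.03% (4.81 to 7.45). The shares of these 5 genes were lower in the cGAMP library, with intervals that did not overlap. For Ephb4 (20.1% and 18.4%) and Robo4 (50.7% and 53.0%) the intervals of the 2 libraries overlapped. Lyz2, a myeloid gene that ECs should lack, was detected in 2.17% and 6.03% of the same cells. Over all ECs of the cGAMP library the Sema3g share was thus no higher than that of Lyz2. The arterial cluster held 62.1% of the Sema3g UMIs of that library, so the share over all ECs does not describe arterial ECs.

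In arterial ECs, Sema3g was detected in 36.4% and 27.3% of thinned cells and Unc5b in 39.8% and 28.3%. In venous or stalk-like ECs of the cGAMP library Unc5b was detected in 0 of 366 cells at 5000 UMIs, which allows a share of up to 0.820% with a UMI at that depth, and in 2.45% (1.13 to 4.60) of 367 cells without thinning. Without thinning, at the median depths given above, Unc5b was detected in 44.7% of PBS cells and 28.1% of cGAMP cells.

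**Figure D4:**
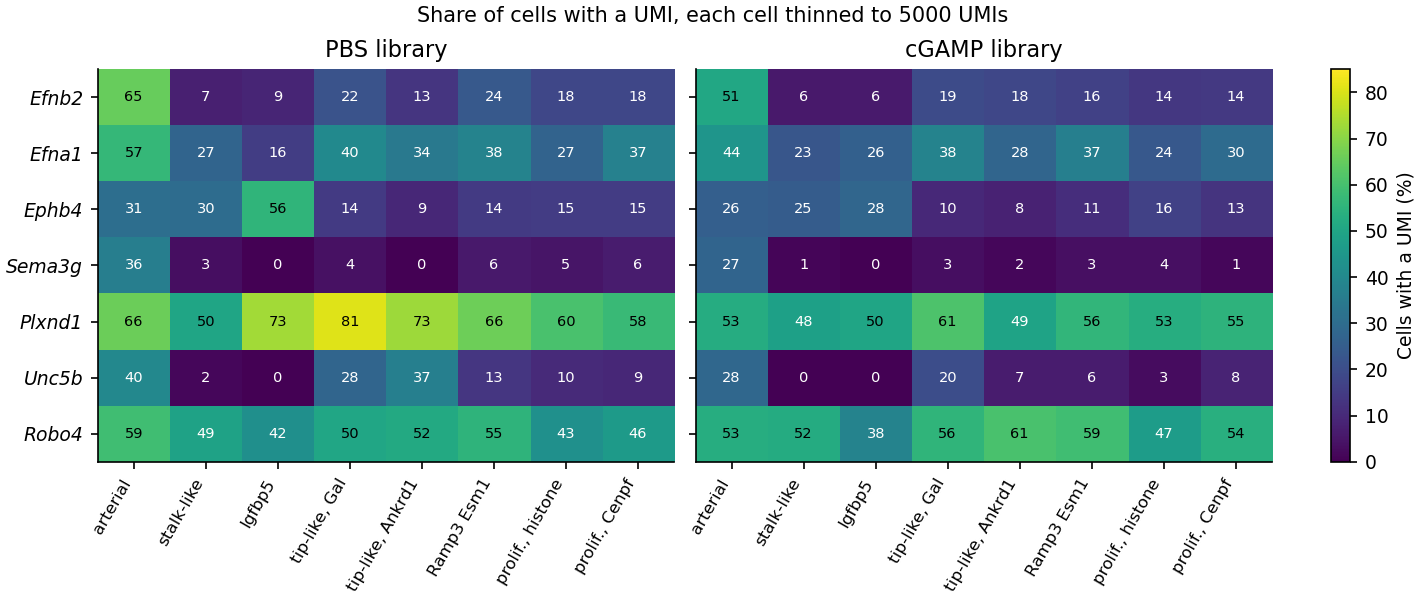
Share of cells with at least 1 UMI of each gene (rows) in each EC cluster (columns), in percent, after thinning each cell to 5000 UMIs, for the PBS library (left) and the cGAMP library (right). Brighter squares are larger shares. The arterial column is bright for Efnb2, Efna1, Sema3g and Unc5b in both libraries.

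Cells with a UMI of Efnb2 more often had one of Sema3g and Unc5b as well, in the same thinned cells. In the PBS library Sema3g was detected in 22.7% (19.4 to 26.2) of cells with Efnb2 and 4.68% (3.76 to 5.74) of cells without it. In the cGAMP library these shares were 17.2% and 3.58%. Unc5b was detected in 34.2% of PBS cells with Efnb2 and 12.3% of those without, and in 21.8% and 5.51% of cGAMP cells. Ephb4 showed no such difference. It was detected in 20.9% (17.7 to 24.3) of PBS cells with Efnb2 and 19.9% (18.1 to 21.8) of those without, and in 17.2% (12.6 to 22.5) and 18.7% (16.4 to 21.1) of cGAMP cells. Among arterial cells of the PBS library alone, Sema3g was detected in 42.6% (36.3 to 49.1) of cells with Efnb2 and 24.6% (17.5 to 32.9) of those without, and Unc5b in 48.8% (42.3 to 55.2) and 23.1% (16.1 to 31.3). In arterial cells of the cGAMP library the intervals overlapped for both genes.

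Levels over the 16 points made by 8 clusters and 2 libraries were compared as a description. Points of a library share its mouse and depth. On the log2(CPM + 1) scale, Pearson's r with Efnb2 was 0.90 for Efna1, 0.88 for Sema3g and 0.77 for Unc5b, and -0.02 for Ephb4. Among 6044 genes with at least 20 CPM in a library, the gene most like Sema3g was Mcf2l (r = 0.97), followed by the gap junction gene Gja4 (0.96), an arterial marker, and Itga1 (0.95). Those most like Efnb2 were Cd81, Slc25a25 and Mgll (0.93 to 0.92), and those most like Efna1 were Efnb2, Mcf2l and BC028528. Unc5b was most like Afap1l1, Myo1e and Iffo2 (all 0.94), Ephb4 most like Nek7, Sncg and Igf2r (0.98 to 0.97), Plxnd1 most like Amotl1, Hspg2 and Serf2, and Robo4 most like Tspan8, Rgcc and Pdgfd.

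The other genes of these families were read from a fixed list of 76, of which 62 are in the tables and 27 reached 5 CPM in a library. Of the 27, 13 were higher and 14 lower in the cGAMP library, against 40.4% and 59.6% of all genes, and 2 were at least 1.5-fold higher and 5 at least 1.5-fold lower, against 4.53% and 7.41% of all genes. Sema3a reached 5 CPM in the cGAMP library alone, and Epha4 and Ephb1 in the PBS library alone. The direction of these genes was fixed by the filter, so they are no support for the counts that include them. Without the 7 genes above, 12 of 20 were higher and 8 lower, with a median log2 ratio of 0.02. Those 20 still include Sema3a, Epha4 and Ephb1.

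**Figure D5:**
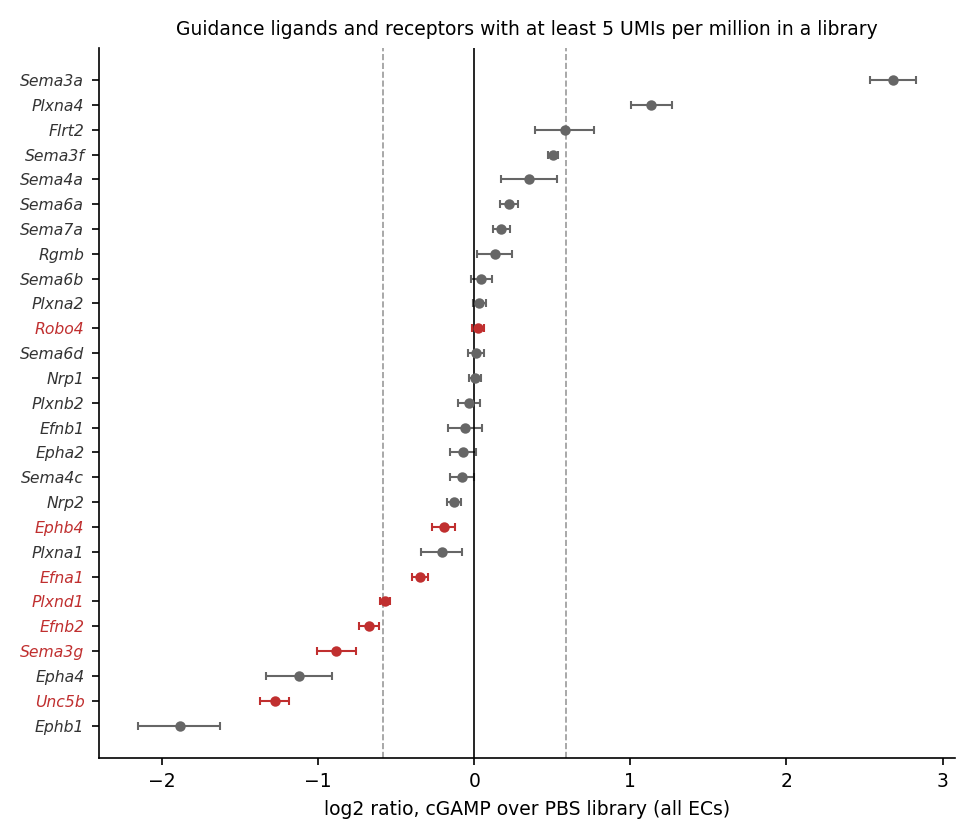
Log2 ratio of the cGAMP over the PBS library (x axis) for each of 27 guidance ligands and receptors (y axis), over all ECs, with 95% counting intervals. Red marks the 7 genes described here, grey the rest of the fixed list, and dashed lines 1.5-fold. Sema3a lies far to the right, and Ephb1, Unc5b, Epha4 and Sema3g lie furthest to the left.

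Sema3a, a secreted semaphorin that acts through neuropilin-1 and class A plexins, went the opposite way from Sema3g. It was at 4.97 CPM (4.53 to 5.45) in the PBS library and 31.9 CPM (30.5 to 33.3) in the cGAMP library, a log2 ratio of 2.68 (2.53 to 2.83). Of all genes, 0.263% were higher by at least this much. Sema3a was higher in all 8 clusters, as was Plxna4, a class A plexin, and as were 14.1% of all genes. In arterial ECs Sema3a was at 1.57 CPM in the PBS library, on 17 UMIs, and 21.5 CPM in the cGAMP library. Plxna4 was at 8.62 CPM in the PBS library and 18.9 CPM in the cGAMP library, a log2 ratio of 1.13 (1.002 to 1.26).

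The Eph receptors with at least 5 CPM in a library were Ephb4, Epha2, Epha4 and Ephb1, and their ratios lay below 0, as did those of 59.6% of all genes. Epha4 and Ephb1 reached that level in the PBS library alone, so their direction was fixed by the filter and is no support for a count. Ephb1 was at 8.29 and 2.24 CPM, with a log2 ratio of -1.89 (-2.16 to -1.63), and Epha4 was at 8.41 and 3.87 CPM, with a ratio of -1.12 (-1.33 to -0.91). Epha2, the main receptor of ephrin-A1, was at 31.2 and 29.6 CPM and its interval included 0. Summed over all ECs, the neuropilins, which bind class 3 semaphorins, differed little. Nrp1 was at 139 CPM in both libraries and Nrp2 at 108 and 98.9 CPM. Within clusters Nrp1 went both ways, with the interval of its log2 ratio below 0 in 3 clusters and above 0 in 4. The ratio was -0.73 (-1.01 to -0.46) in the Ankrd1 tip-like cluster and 0.24 (0.15 to 0.34) in arterial ECs. For Nrp2 the interval lay below 0 in 5 clusters and above 0 in none.

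Some ligands of plexin, Unc5 and Robo receptors were scarce in the ECs themselves. Sema3e, a ligand of Plxnd1, was at 0.0543 CPM in the PBS library. It had no UMI in the cGAMP library, where a count of 0 allows up to 0.0473 CPM. Ntn1, the netrin-1 ligand of Unc5b, was at 0.869 and 0.994 CPM, and Slit2, a Slit ligand of Robo receptors, at 1.48 and 1.66 CPM. Flrt2, another ligand of Unc5 receptors, was at 5.06 CPM in the PBS library and 7.56 CPM in the cGAMP library, a log2 ratio of 0.58 (0.39 to 0.77). Within clusters Flrt2 went both ways, with the interval of its log2 ratio above 0 in 2 clusters and below 0 in 1. The latter was the arterial cluster, at 3.61 and 1.38 CPM on 39 and 10 UMIs, with a ratio of -1.38 (-2.55 to -0.35).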

How the data were processed

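The deposited values are natural log values, ln(1 + UMIs per 10000 UMIs of the cell), which the authors made with Cell Ranger 3.0.0 and Seurat 3.1.1 per the labels, keeping cells with over 500 genes and under 10% mitochondrial UMIs. By the methods, Pecam1-negative cell types were also removed after an initial clustering. UMI counts were recovered from the deposited values, with 100% of values above 0 within 0.01 of a whole number. UMIs of a gene were summed per library and cluster and divided by all UMIs (CPM). Intervals were exact Poisson for levels, conditional binomial for ratios and Clopper-Pearson for shares. Only the ratio intervals were tried on simulated counts, which were drawn as Poisson counts, as those intervals assume. Real counts varied more between cells. In thinned cells the variance over the mean of the 7 genes ran from 1.06 (Robo4, cGAMP library) to 2.12 (Efnb2, PBS library). Intervals of levels and ratios leave that spread out. No test was made, since each condition has 1 library. Clusters came from Seurat 5.3.0 in R 4.3.3 (anchor integration, 1777 of 2500 variable genes after removal of 24 guidance genes and of genes 2-fold different between libraries, 30 principal components, resolution 0.5). No doublet caller was run. Named genes were the 7 genes, guidance genes at least 1.5-fold different, family members that bear on them as ligand or receptor, and for each gene the 3 most correlated. Genes and lists were chosen with earlier results of these data known. Coordinates are GENCODE (GRCm38), and 7 of 7 genes had RefSeq promoters.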

Additional observations from a re-analysis of the deposited data

How the results depend on the processing

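The direction of each of the 7 ratios between libraries held in all 7 alternatives (mean of cell values, median-of-ratios scaling, equal class proportions, at most 5% mitochondrial UMIs, cells with Pecam1 and Cdh5 and without Ptprc, thinning, no proliferative cells). The number at least 1.5-fold different ranged from 2 to 4. It was 2 with equal class proportions (Efnb2 at -0.58) or thinning (Sema3g at -0.54), and 4 with at most 5% mitochondrial UMIs or without proliferative cells, where Plxnd1 joined. With at least 20 CPM required, 1 guidance gene was 1.5-fold higher and 3 lower, since fewer genes were tested. Sema3a, Sema3g and Unc5b reached 20 CPM in 1 library only, so that filter fixed their direction. The number of the 7 genes at least 2-fold higher in a class was 3 or 4, and Ephb4 fell short at resolution 0.3, without integration and with thinning. Thinning to 10000 UMIs or none raised every share, to 27.2% and 14.02% for Unc5b at 10000 UMIs. No paired analysis was possible because each condition has 1 library. A spread between mice cannot be estimated.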
